A study of Mus musculus with 10 samples.

Results

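Tetraspanins are small membrane proteins that cross the membrane repeatedly and gather integrins, proteases and receptors into patches of the cell surface, and uroplakins are the proteins of the plaques that seal the inner face of the bladder. The genes described here are all those whose mouse symbol is Tspan with a number or Upk with a number and an optional letter, plus Cd9, Cd37, Cd53, Cd63, Cd81 and Cd82. The rule found 32 genes of 24594 in the count table. Of these, 28 encode tetraspanins, Upk1a and Upk1b among them, and the remaining 4 (Upk2, Upk3a, Upk3b and Upk3bl) encode uroplakins of other folds.

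Transcripts were counted in sorted mammary epithelial cells of adult virgin wild type C57BL/6J mice, for which the labels give no treatment, in 5 luminal and 5 basal libraries. Luminal cells line the inside of the ducts and basal cells form the contractile outer layer. The cells were sorted on EpCAM and CD49f after lineage staining for blood and endothelial cells, and libraries of the same number come from 1 animal as the library names were read. Each group mixes the cell types within its gate, so the luminal libraries hold hormone-sensing and progenitor cells together.

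Library totals ran from 13203146 to 17998165 counts. Libraries were grouped by their cell type label, while all 10 sample titles name the opposite type. The markers followed the cell type label, as 12 of 12 luminal markers were higher in luminal and 10 of 10 basal markers higher in basal libraries. The sort itself chose on 2 of those markers, Epcam and Itga6. A list of 10 leukocyte markers summed to 5.57 to 14.3 CPM (reads per 1000000 of the scaled library total) in luminal and 12.7 to 35.5 CPM in basal libraries, and its T cell gene Cd3e had no count in any library. Without Cd74, left out after the values were seen, the other 9 summed to 4.57 to 10.8 CPM in luminal and 0.774 to 5.00 CPM in basal libraries. Of other cell types, the erythroid gene Hba-a1 was at 3.37 to 15.9 CPM in luminal and 0 to 0.188 CPM in basal libraries, and the fibroblast gene Dcn at 11.6 to 95.1 against 10.5 to 14.3 CPM, both called higher in luminal. The fibroblast gene Pdgfra (9.94 to 19.4 against 3.42 to 9.52 CPM) and the adipocyte gene Fabp4 (3.87 to 7.81 against 0.534 to 1.53 CPM) were called higher in basal libraries, and the other 3 fibroblast genes, Col1a1, Col3a1 and Lum, were not called.

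As background, a tetraspanin seldom acts alone. CD9 and CD81 bind the immunoglobulin proteins EWI-2 and EWI-F (genes Igsf8 and Ptgfrn) and CD151 binds laminin-binding integrins. The TspanC8 group, tetraspanins with 8 cysteines in the large extracellular loop, carries the protease ADAM10 to the surface and steers which substrates it cuts, NOTCH1 among them. In the bladder, each tetraspanin uroplakin pairs with a partner, UPK1A with UPK2 and UPK1B with UPK3A.

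The comparison of luminal with basal cells asks which members mark either layer. Of the 32 members, 23 had enough reads to be tested, and 18 of the 23 (78.3%) passed the test (edgeR, adjusted p under 0.05 over 14609 genes), against 64.8% of all genes tested. There were 12 members higher in luminal cells (52.2%, against 33.6% of all genes) and 6 higher in basal cells (26.1%, against 31.2%). A difference of at least 4-fold was called for 9 members (39.1%, against 18.5%), and the luminal and basal values of 19 members did not overlap (82.6%, against 50.1%). These shares are a description only. Upk2, Upk3a, Tspan33, Tspan1 and Tspan18, 5 of the 23 members, passed the read filter through 1 group alone and so had to differ. Of all genes tested, 13.8% also passed through 1 group alone. The median log2 fold change, luminal over basal, was 1.06 over the 23 members and 0.05 over all genes tested. In bulk libraries, fewer cells of a type and less RNA per cell cannot be told apart.

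**Figure D1:**
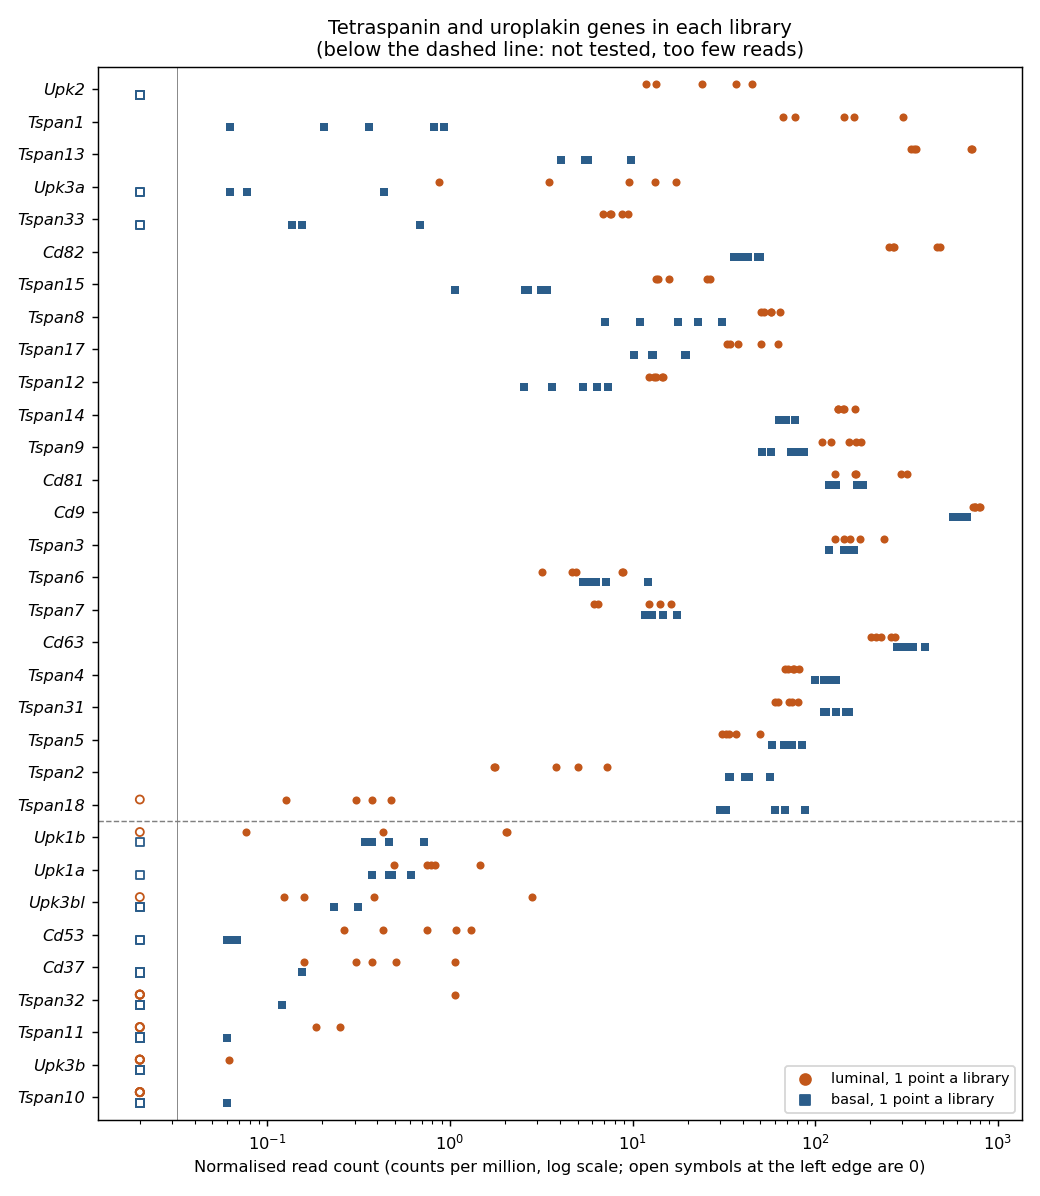
Normalised read count (CPM, log axis) of the 32 genes in each of the 10 libraries, luminal as circles and basal as squares, with values of 0 as open symbols at the left edge. The 23 tested genes stand above the dashed line in the order of their fold change, from Upk2, with no read in any basal library, down to Tspan18, with at most 0.474 CPM in a luminal library.

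By role, both tested uroplakins and 4 of 5 tested TspanC8 genes were higher in luminal cells, beside 33.6% of all genes, with Upk2, Upk3a and Tspan33 tested only through their luminal reads. The broadly expressed surface tetraspanins gave 3 higher in luminal, 2 higher in basal and 4 that did not pass the test. Their luminal share was 33.3% and their basal share 22.2%, beside 33.6% and 31.2% of all genes. The test was passed by 55.6% of them, against 64.8% of all genes. The 8 tetraspanins outside those roles gave 3 higher in luminal, 3 higher in basal, 1 not called and 1 not tested. Each direction held 42.9% of those tested, beside the same shares of all genes. Tspan1 was tested only through its luminal reads and Tspan18 only through its basal reads. None of the 3 leukocyte members had enough reads for a test.

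**Figure D2:**
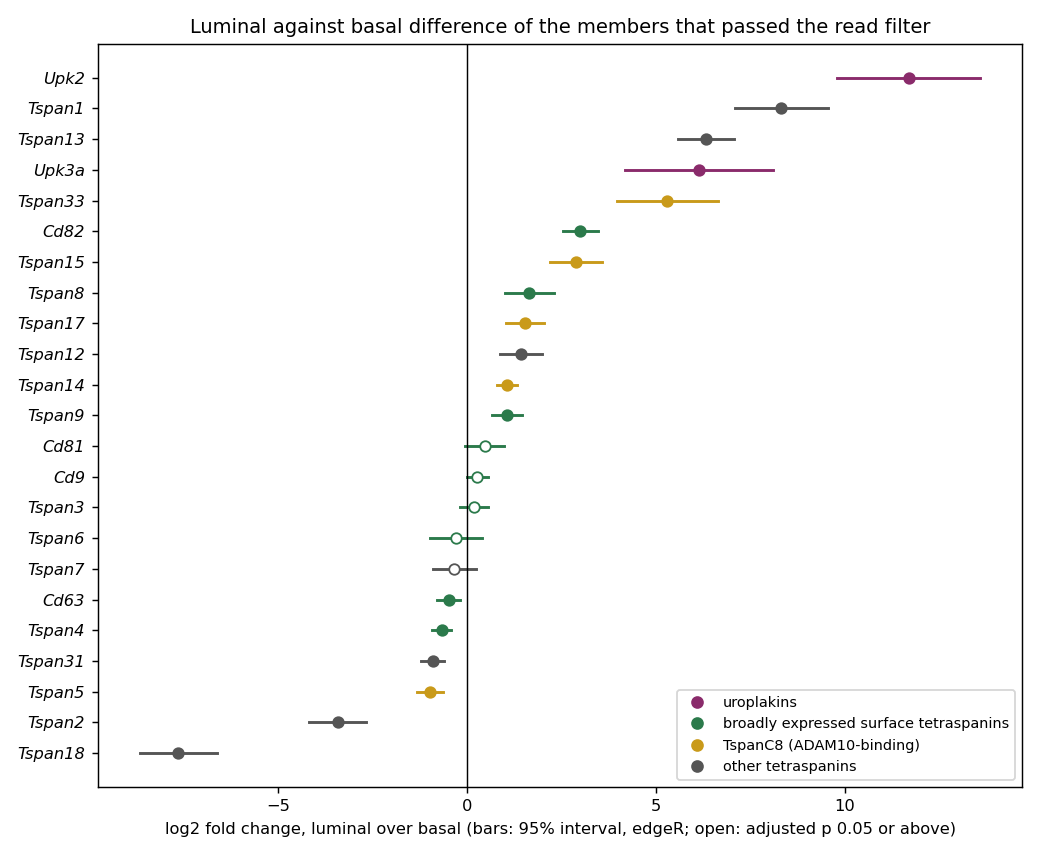
Log2 fold change of the 23 tested members, luminal over basal, with 95% intervals from edgeR over 5 luminal and 5 basal libraries, coloured by role. Filled points passed the test, and the 5 open points (Cd81, Cd9, Tspan3, Tspan6 and Tspan7) did not.

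Upk2 and Upk3a were found in luminal cells with few or no reads in basal cells. Upk2, on chromosome 9 from 44452715 to 44454767 (GRCm38), read 13.4, 45.2, 11.8, 24.1 and 37.1 CPM in luminal libraries 1 to 5. It had no count in any basal library. Every luminal library was thus above every basal one, and against a floor of 3 counts per library the luminal mean of 26.3 CPM (SD 14.6, n = 5) was at least 133-fold higher (edgeR adjusted p = 7.01e-07). Upk3a, on chromosome 15 from 85017141 to 85022560, read 0.876, 9.53, 3.50, 17.3 and 13.3 CPM in luminal libraries 1 to 5. In basal libraries 1 to 5 it read 0.437, 0, 0.0774, 0.0625 and 0 CPM. The groups did not overlap, although luminal library 1 held only 14 counts. The gene differed by a log2 fold change of 6.14 with an SE of 0.91 (adjusted p = 3.97e-05), and values after ± are SEs for fold changes and SDs over 5 libraries for CPM and levels from here on. Without basal library 1, which held 7 of the 9 basal counts, the log2 fold change was 7.74. Upk2 and Upk3a passed the read filter through their luminal reads alone and so had to differ, which leaves their tests a description.

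The tetraspanin partners of these uroplakins stayed near the detection limit in both layers. Upk1b, the partner of UPK3A, had 0, 39, 7, 1 and 32 counts in luminal libraries 1 to 5, so that only libraries 2 and 5 held more than a few reads. In basal libraries 1 to 5 it had 6, 5, 6, 0 and 12 counts. Upk1a, the partner of UPK2, had 8 to 19 counts in luminal and 0 to 9 in basal libraries, and it was higher in luminal in 5 of 5 same-numbered pairs. Neither gene had enough reads for the test. Genes were compared with each other on the level per length, the reads per kilobase of exon scaled to a sum of 1000000 in each library. On this scale luminal Upk2 stood at 85.9 ± 46.7 and Upk3a at 27.9 ± 19.6 (SD, n = 5). Luminal Upk1a stood at 2.12 ± 0.655 and Upk1b at 1.58 ± 1.75 on the same scale. The levels of Upk2 and Upk3a were above those of Upk1a and Upk1b in every luminal library, by the least in library 1, where Upk3a was at 3.005 and Upk1a at 1.98.

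Upk3b and Upk3bl, neighbours 12.3 kb apart on chromosome 5, were close to absent. Upk3b had 1 count in all 10 libraries together. Upk3bl had 45 counts in luminal library 1 and at most 5 in any other library.

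Genes known from the bladder lining, including regulators of uroplakin expression, were examined beside the uroplakins. All 8 tested genes of this list of 10 were higher in luminal cells, with log2 fold changes from 1.39 to 7.56 (median 4.02), beside 33.6% of all genes tested. Of the 8, Pparg, Grhl3 and Mal passed the read filter through the luminal group alone and so had to differ, which leaves the count a description. They included the nuclear receptor gene Pparg (4.75 ± 0.66, adjusted p = 2.14e-05), Foxa1 (7.56 ± 0.28), Grhl3 (3.58 ± 0.71), Elf3 (3.03 ± 0.19) and Klf5 (1.85 ± 0.21). Without basal library 4 the values were 5.14 for Grhl3 and 7.46, in place of 5.66, for Mal. Gata3, Krt7 and Mal were also higher. Foxa1, Gata3, Elf3 and Krt7 are known genes of mammary luminal cells too. The remaining 2, Krt20 of the bladder's umbrella cells and Snx31, a sorting protein of uroplakin vesicles, were not tested, and no library exceeded 1.16 CPM for Krt20 or 0.382 CPM for Snx31. Krt20 had 23 counts over the basal libraries, 15 of them in 1 library, and 1 count over the luminal libraries, the opposite side from the 8 called genes.

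Among the tetraspanins of no assigned role, Tspan1 and Tspan13 were the leading luminal genes. Tspan1, found on many secretory epithelia, read 66.4, 144.1, 77.2, 301.2 and 163.3 CPM in luminal libraries 1 to 5. In basal libraries 1 to 5 it read 0.0624, 0.205, 0.929, 0.813 and 0.36 CPM. The lowest luminal library was far above the highest basal one, and the log2 fold change was 8.32 ± 0.57 (adjusted p = 1.76e-08). Tspan1 passed the read filter through its luminal reads alone and so had to differ, which leaves the test a description. Tspan13 read 357.0, 334.2, 348.6, 718.5 and 715.7 CPM in luminal libraries 1 to 5. In basal libraries 1 to 5 it read 9.79, 5.66, 5.73, 5.50 and 4.08 CPM. Luminal libraries 4 and 5 held about the same amount and the other 3 luminal libraries a lower one, while basal library 1 was the highest of its group. Its log2 fold change was 6.33 ± 0.34 (adjusted p = 1.70e-09). Tspan12, which helps the receptor FZD4 to take up Norrin, was at 13.6 ± 1.03 CPM in luminal and 5.06 ± 1.97 CPM in basal cells (log2 fold change 1.43 ± 0.26, adjusted p = 0.000273).

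The basal side was led by Tspan18 and Tspan2. Tspan18, known from endothelial cells as a regulator of the calcium channel ORAI1, read 87.4, 60.0, 68.3, 30.1 and 32.3 CPM in basal libraries 1 to 5. In luminal libraries 1 to 5 it had 6, 9, 5, 0 and 2 counts. The log2 fold change was -7.64 ± 0.47 (adjusted p = 6.33e-09), and basal libraries 4 and 5 held less than the other 3. Tspan18 passed the read filter through its basal reads alone and so had to differ, which leaves the test a description. The endothelial marker Cdh5 was also higher in basal than in luminal libraries, at 2.69 to 6.69 against 0.0527 to 0.491 CPM, and the 5 endothelial markers together summed to 6.57 to 14.4 CPM there and 1.69 to 4.06 CPM in luminal libraries. CPM is not scaled by gene length, so these values do not compare Tspan18 with the markers. Whether endothelial reads have a part in the Tspan18 value was not tested.

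Tspan2, known from myelinating glia and smooth muscle, read 34.3, 56.6, 41.4, 43.6 and 33.6 CPM in basal libraries 1 to 5. In luminal libraries 1 to 5 it read 7.25, 1.74, 3.80, 1.76 and 5.01 CPM, which leaves the groups apart (log2 fold change -3.42 ± 0.35, adjusted p = 1.03e-06). Tspan31 was at 131.1 ± 18.9 CPM in basal and 70.0 ± 8.37 CPM in luminal cells (log2 fold change -0.91 ± 0.14, adjusted p = 5.08e-05). Tspan31 shares 641 of its 2193 exon bases with Cdk4 on the opposite strand, and without a stated use of strand their reads cannot be told apart. Tspan7, a neuronal tetraspanin, was at 11.03 ± 4.56 CPM in luminal and 13.8 ± 2.27 CPM in basal cells and did not pass the test (95% interval of the log2 fold change -0.91 to 0.25, adjusted p = 0.304). Tspan11 had at most 4 counts in a library.

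The window around an annotated start (250 bases before to 50 after) was read for 5 members, to show the bases around a start of genes that differ between the layers. They are the 3 members higher in luminal and the 2 higher in basal cells with the largest fold changes among those with an entry. Upk2, Tspan18 and Upk1b have none. Windows came from RefSeq on GRCm38.p6, where 29 of the 32 members had one. Those of Tspan1 and Tspan5 surround a start inside the gene span, which begins at 116167621 (minus strand) and 138741848 (plus strand). Searched on both strands were the letters AGATAA of GATA factors, AGGAAG of ETS factors, GGAATG of TEAD factors, TGANTCA of AP-1, TATAAA, the GC box GGGCGG and the CArG box by its name. Capitals mark every match, and no match overlaps a match of another motif in these 5 windows, while 2 GC boxes of Tspan5 share bases. The first 3 windows belong to genes higher in luminal cells and the last 2 to genes higher in basal cells.
Tspan1: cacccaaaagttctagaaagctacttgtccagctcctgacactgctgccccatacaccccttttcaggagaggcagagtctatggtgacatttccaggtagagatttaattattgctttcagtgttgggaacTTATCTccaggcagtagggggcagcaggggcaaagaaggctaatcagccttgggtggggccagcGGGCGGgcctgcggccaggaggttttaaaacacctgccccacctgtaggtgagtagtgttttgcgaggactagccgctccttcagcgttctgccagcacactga
Tspan13: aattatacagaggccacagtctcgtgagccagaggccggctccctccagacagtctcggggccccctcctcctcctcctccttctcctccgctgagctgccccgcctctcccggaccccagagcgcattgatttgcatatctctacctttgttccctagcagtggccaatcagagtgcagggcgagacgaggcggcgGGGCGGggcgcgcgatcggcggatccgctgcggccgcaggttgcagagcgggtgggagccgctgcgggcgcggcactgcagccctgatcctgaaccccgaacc
Upk3a: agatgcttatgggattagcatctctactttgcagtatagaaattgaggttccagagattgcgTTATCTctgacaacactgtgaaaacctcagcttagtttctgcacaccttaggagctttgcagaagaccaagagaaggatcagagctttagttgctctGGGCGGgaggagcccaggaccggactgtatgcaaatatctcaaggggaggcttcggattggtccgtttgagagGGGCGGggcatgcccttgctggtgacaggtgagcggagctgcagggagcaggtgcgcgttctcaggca
Tspan2: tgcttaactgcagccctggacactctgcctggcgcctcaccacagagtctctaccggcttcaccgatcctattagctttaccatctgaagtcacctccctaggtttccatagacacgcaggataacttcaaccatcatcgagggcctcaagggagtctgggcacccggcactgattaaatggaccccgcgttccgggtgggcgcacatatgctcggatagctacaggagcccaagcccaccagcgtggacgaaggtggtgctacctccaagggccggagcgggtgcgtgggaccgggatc
Tspan5: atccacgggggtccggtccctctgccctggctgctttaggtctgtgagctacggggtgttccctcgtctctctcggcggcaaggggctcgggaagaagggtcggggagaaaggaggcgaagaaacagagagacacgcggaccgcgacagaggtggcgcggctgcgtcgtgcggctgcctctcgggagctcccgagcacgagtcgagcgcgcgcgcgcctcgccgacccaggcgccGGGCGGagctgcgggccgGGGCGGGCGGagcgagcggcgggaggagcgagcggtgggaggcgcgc
The windows lie at chr4:116167549-116167848 (minus strand) for Tspan1, chr12:36042429-36042728 (minus strand) for Tspan13, chr15:85016891-85017190 (plus strand) for Upk3a, chr3:102734520-102734819 (plus strand) for Tspan2 and chr3:138741958-138742257 (plus strand) for Tspan5. Tspan1 and Upk3a each hold a GATA match on the reverse strand, at positions -118 to -113 and -188 to -183 from the start. These are the 2 of 11 windows of members higher in luminal cells with this match, against 0 of 5 of members higher in basal cells and 11.4% of 27025 promoter windows of all genes. The GC box was in 8 of the 11 and 2 of the 5 windows, against 35.9% of all. Base composition differed widely within each direction, from 5 CG dinucleotides in Tspan8 to 33 in Tspan14 over the 11 windows and from 6 in Cd63 to 43 in Tspan5 over the 5, with a median of 7 over all windows. ETS letters were in 2 of 11 and 2 of 5 windows (35.1% of all), TEAD letters in 2 and 0 (14.7%), AP-1 letters in 1 and 0 (7.92%), TATAAA in 1 and 0 (14.2%) and the CArG box in 0 and 0 (1.59%). A match describes letters in the window and is not evidence of a bound factor.

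Adam10 and 4 of the 5 tested TspanC8 genes were higher in luminal cells, beside 33.6% of all genes, and of these Tspan33 was tested only through its luminal reads. Adam10 read 576.1, 477.4, 477.8, 490.9 and 506.4 CPM in luminal libraries 1 to 5. In basal libraries 1 to 5 it read 51.6, 61.7, 84.0, 66.3 and 54.5 CPM. That is a clear gap between the groups, with a log2 fold change of 2.99 ± 0.16 (adjusted p = 1.77e-09). The related protease gene Adam17, which uses iRhom proteins in place of the TspanC8 group, was at 54.0 ± 6.61 against 45.2 ± 4.99 CPM and did not pass the test (95% interval of the log2 fold change -0.03 to 0.54, adjusted p = 0.109). It passed with upper-quartile factors (0.38, adjusted p = 0.0193) and with library totals alone (0.45, adjusted p = 0.0104).

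Tspan14, which promotes Notch activation with ADAM10, was at 143.6 ± 13.4 CPM in luminal and 68.8 ± 5.36 CPM in basal cells (log2 fold change 1.06 ± 0.12, adjusted p = 2.49e-06). Tspan17 was at 43.6 ± 12.7 against 14.97 ± 4.25 CPM (1.54 ± 0.23, adjusted p = 4.41e-05). Tspan15, which turns ADAM10 towards N-cadherin, read 25.5, 15.8, 13.8, 13.5 and 26.7 CPM in luminal libraries 1 to 5 and 1.06 to 3.41 CPM in basal libraries (2.89 ± 0.32, adjusted p = 2.07e-06). Luminal libraries 1 and 5 were its highest. Tspan33 read 6.88, 9.48, 8.71, 7.56 and 7.61 CPM in luminal libraries 1 to 5, and 0, 0.136, 0.155, 0.688 and 0 CPM in basal libraries 1 to 5 (5.30 ± 0.62, adjusted p = 4.23e-06). It is the TspanC8 gene with the steepest difference, and without basal library 4 its log2 fold change was 6.74. As Tspan33 passed the read filter through its luminal reads alone, it had to differ, and its test is a description.

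Tspan5 went the other way. It read 50.1, 37.0, 33.9, 32.3 and 30.7 CPM in luminal libraries 1 to 5 and 58.3, 74.6, 84.5, 74.0 and 67.4 CPM in basal libraries 1 to 5, so the groups were close but did not overlap (log2 fold change -0.96 ± 0.16, adjusted p = 0.000111). Tspan10, the remaining member of the group, had 1 count in all libraries.

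Set side by side per length, Tspan14 was the most abundant TspanC8 gene of both layers, with 60.8% ± 4.84 of the group's summed level in luminal and 57.8% ± 4.32 in basal cells (SD, n = 5). The rest of the group differed in make-up. Tspan17 held 29.1% ± 6.20 in luminal and 19.9% ± 4.57 in basal cells, and Tspan5 held 5.64% ± 1.502 and 21.5% ± 1.17. Tspan15 held 2.69% ± 1.17 and 0.705% ± 0.249, and Tspan33 1.74% ± 0.155 and 0.0786% ± 0.114. With the longest transcript as length the Tspan15 shares were 5.46% and 1.46%, which in luminal cells is close to the 5.67% of Tspan5. The range of the Tspan5 share, 4.63% to 8.27% in luminal and 20.6% to 23.5% in basal libraries, left the widest gap between groups in percentage points, while the ranges of Tspan14 and Tspan17 overlapped. Summed over the group the level per length was 322.8 ± 49.9 in luminal and 162.9 ± 17.8 in basal cells, beside 371.6 ± 48.5 and 46.8 ± 9.74 for Adam10. These shares are descriptions and were not tested.

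**Figure D3:**
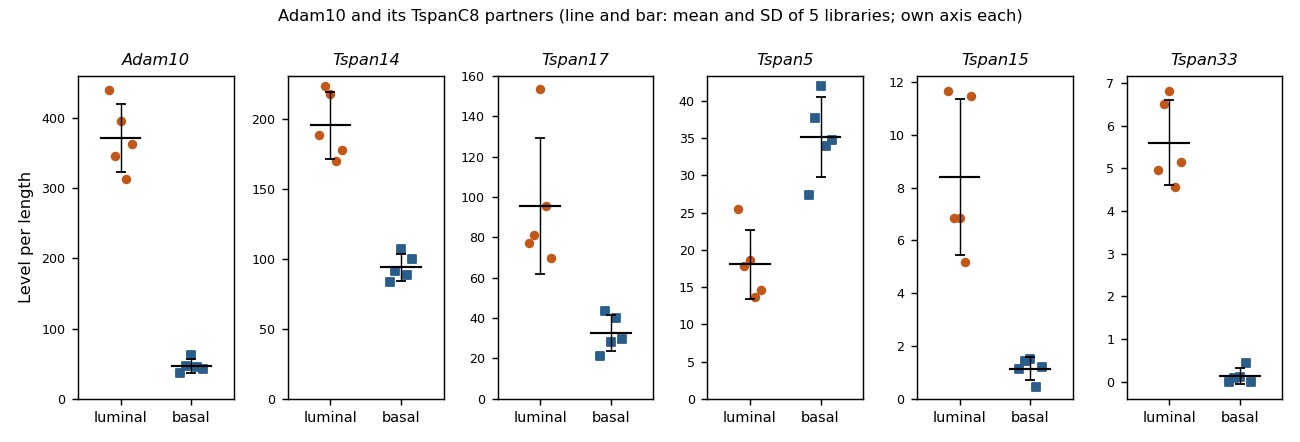
Level per length (reads per kilobase of exon, scaled to a sum of 1000000 a library) of Adam10 and of the 5 TspanC8 genes with reads, in each luminal (circle) and basal (square) library, with the mean and SD of 5 libraries and an axis of its own for each gene. Tspan5 alone stands higher in the basal libraries.

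The broadly expressed surface tetraspanins included Cd9, Cd63 and Cd81, abundant in both layers, and all 4 of their genes that were not called had differences under 1.5-fold. Cd9, the most abundant member in both layers, read 753.6, 791.9, 732.4, 753.3 and 803.3 CPM in luminal libraries 1 to 5. In basal libraries 1 to 5 it read 636.5, 627.5, 657.5, 681.2 and 569.9 CPM. Each luminal library was above each basal one, yet the log2 fold change of 0.27 ± 0.13 did not pass the test (95% interval -0.002 to 0.55, adjusted p = 0.0759). DESeq2 and limma voom gave it adjusted p-values of 0.025 and 0.0492. Cd9 shares 218 of its 2044 exon bases with Gm26728 on the opposite strand, and 14.2% of its 51-base words recur in other transcripts, so some of its reads may have been shared.

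Cd63, a tetraspanin of late endosomes and exosomes, was at 328.7 ± 45.1 CPM in basal and 235.7 ± 29.9 CPM in luminal cells (log2 fold change -0.48 ± 0.14, adjusted p = 0.00908). It was lower in luminal in 5 of 5 pairs, and 10.8% of its 51-base words recur in other transcripts such as Cd63-ps, so some of its reads may have been shared. With library totals alone in place of the composition-aware scaling, the call was lost (log2 fold change -0.29, adjusted p = 0.079). Cd81 read 318.1, 164.8, 167.5, 129.0 and 295.7 CPM in luminal libraries 1 to 5 and 119.6, 172.2, 183.4, 168.4 and 129.8 CPM in basal libraries 1 to 5. The groups overlapped, with luminal libraries 1 and 5 above all others, and the difference did not pass the test (0.48 ± 0.24, adjusted p = 0.0954). Without luminal library 4 it did (0.61, adjusted p = 0.0239).

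Cd82, known as a suppressor of metastasis, was the surface member with the largest difference. It read 462.2, 270.1, 254.9, 265.6 and 485.2 CPM in luminal libraries 1 to 5 and 36.1, 39.4, 49.9, 48.5 and 42.7 CPM in basal libraries 1 to 5. The lowest luminal library lay several times above the highest basal one (log2 fold change 3.004 ± 0.22, adjusted p = 3.05e-08). Cd82 and Tspan18 are neighbours on chromosome 2, 84.5 kb apart, and stand on opposite sides of the comparison.

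Tspan8, an integrin-binding tetraspanin of exosomes, was at 56.3 ± 5.15 CPM in luminal and 17.9 ± 9.47 CPM in basal cells (log2 fold change 1.65 ± 0.30, adjusted p = 0.000258), with the basal libraries spread from 7.09 to 30.9 CPM. Tspan9 was at 146.0 ± 29.4 against 70.1 ± 15.2 CPM (1.06 ± 0.18, adjusted p = 0.000143). Tspan4, which builds the migrasomes left behind by moving cells, was higher in basal cells, at 118.7 ± 12.9 against 74.6 ± 5.37 CPM (-0.67 ± 0.12, adjusted p = 0.000236). It shares 292 of 2178 exon bases with Chid1 on the opposite strand. Tspan3 (95% interval of the log2 fold change -0.17 to 0.55, adjusted p = 0.347) and Tspan6, which binds syntenin on the way to exosomes (-0.97 to 0.41, adjusted p = 0.465), did not pass the test.

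Of the tetraspanins outside the naming rule, Cd151 was higher in basal cells at 336.0 against 190.7 CPM (log2 fold change -0.82 ± 0.13, adjusted p = 7.94e-05). Rom1 did not pass the test (-0.02 ± 0.32, adjusted p = 0.969), and Prph2, which like Rom1 belongs to photoreceptors, had almost no reads.

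Of 16 genes for proteins that tetraspanins bind or steer, 7 were higher in luminal, 7 higher in basal and 2 not called, beside 33.6% and 31.2% of all genes tested. The laminin receptor chains were on the basal side with Cd151, namely Itga3 (log2 fold change -1.72 ± 0.19), Itgb4 (-2.02 ± 0.22), Itgb1 (-1.06 ± 0.17) and Itga6 (-1.36 ± 0.18), of which Itga6 encodes the sort marker CD49f. Egfr was also higher in basal cells (-2.69 ± 0.19), as were Ptgfrn (-0.67 ± 0.24) and Cd44 (-0.69 ± 0.25). The calls of Ptgfrn and Cd44 were lost in some of the other settings. On the luminal side stood Cldn7 (5.74 ± 0.25), Epcam (2.38 ± 0.20, the other sort marker), Adam10, Notch1 (1.51 ± 0.19), Fzd4 (1.33 ± 0.26), Hbegf (1.88 ± 0.36) and Igsf8 (0.62 ± 0.17). The 2 immunoglobulin partners of CD9 and CD81, Igsf8 and Ptgfrn, were thus called in opposite directions.

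Of 10 genes of exosome sorting, 7 were higher in luminal cells, 1 higher in basal cells and 2 not called, beside 33.6% and 31.2% of all genes tested. The paralogous release factors parted, with Rab27b at 39.3 ± 11.1 CPM in luminal and 3.11 ± 1.57 CPM in basal cells (log2 fold change 3.65 ± 0.34, adjusted p = 4.41e-07) and Rab27a at 3.64 ± 1.15 against 42.5 ± 9.53 CPM (-3.54 ± 0.25, adjusted p = 2.01e-08). The groups did not overlap for either gene. The other luminal calls, Tsg101, Sdcbp (syntenin), Rab31, Chmp4b, Vps4a and Hgs, were smaller, with log2 fold changes from 0.39 to 0.92. Pdcd6ip and Vps4b did not pass the test.

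The leukocyte members were scarce. Cd53 had 12, 5, 7, 17 and 17 counts in luminal libraries 1 to 5 and at most 1 in a basal library. Cd37 had 6, 3, 5, 14 and 8 counts in luminal libraries 1 to 5 and at most 2 in a basal library. Against the floor of 3 counts per library the luminal means were at least 3.85-fold and 2.44-fold higher, without a test. Of the leukocyte markers, Cd52 (2.13 to 6.95 against 0.30 to 3.06 CPM) and Lyz2 (0.75 to 1.83 against 0.0774 to 0.875 CPM) were also called higher in luminal libraries. Coro1a and Laptm5, not tested, were higher in luminal in 5 and 4 of 5 pairs. Cd74 alone was called higher in basal libraries (11.6 to 30.5 against 1.00 to 3.74 CPM), and Ptprc reached at most 0.381 CPM. Their part in the Cd37 and Cd53 counts was not tested. Tspan32 had 14 counts in luminal library 4, 2 in basal library 5 and none elsewhere.

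Per length, the 28 tetraspanin genes summed to 4164 ± 398 in luminal and 2569 ± 179 in basal cells (SD, n = 5). Cd9 was first in both, with 32.7% ± 3.78 of the luminal and 43.7% ± 1.58 of the basal sum. The luminal order then ran Tspan13 (16.8% ± 4.82), Cd82 (9.90% ± 2.78), Cd81 (6.43% ± 2.39), Cd63 (5.53% ± 0.482) and Tspan1 (5.402% ± 2.97). Only Cd9 stood apart there, as the ranges over libraries of Tspan13 and Cd82, and of each later pair of neighbours in this order, overlapped. The basal order ran Cd63 (12.5% ± 0.868), Tspan31 (8.37% ± 0.648), Tspan4 (7.68% ± 0.904) and Cd81 (7.51% ± 0.962), where Cd9 and Cd63 stood apart from the next gene and the ranges of Tspan31 and Tspan4 and of Tspan4 and Cd81 overlapped. Tspan13, Cd82 and Tspan1 ranked 16th, 8th and 21st by mean level in basal cells and 2nd, 3rd and 6th in luminal cells. These shares were not tested.

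**Figure D4:**
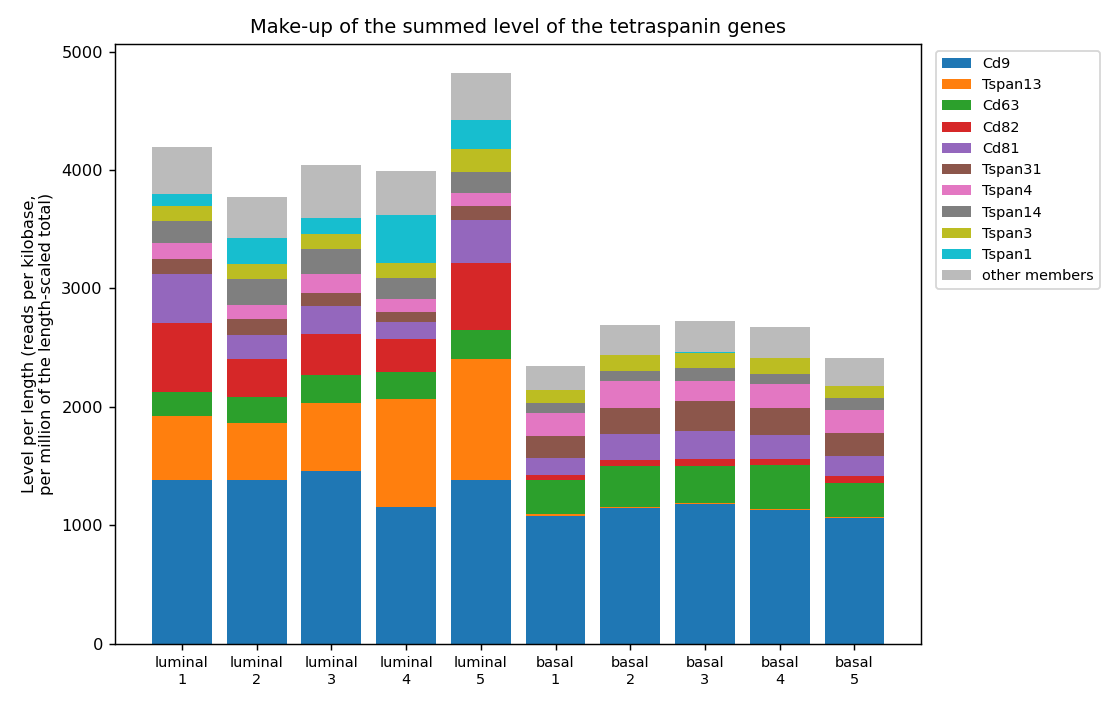
Summed level per length of the 28 tetraspanin genes in each library, stacked by gene, with the 10 most abundant genes named. The luminal sums run from 3773 to 4823 and the basal sums from 2342 to 2723, and Tspan13, Cd82 and Tspan1 take up much of the luminal sums and little of the basal ones.

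The members also differed in how evenly they were present among the luminal libraries. The coefficient of variation (SD as a percentage of the mean) over the 5 luminal libraries was 3.86% for Cd9, 7.20% for Tspan4, 7.61% for Tspan12, 9.15% for Tspan8 and 9.35% for Tspan14. It was 76.1% for Upk3a, 62.5% for Tspan1, 55.6% for Upk2, 41.1% for Tspan13 and 39.8% for Cd81, beside a median of 24.4% over all genes tested. Of the less abundant tetraspanins, Tspan18 was at 74.6%, Tspan2 at 59.6%, Tspan6 at 42.5%, Tspan7 at 41.3% and Tspan33 at 12.9%. The Tspan18 value rests on 0 to 9 counts a library, where counting error is large, so it says little about evenness. Upk2, Upk3a and Tspan1 were each lowest in libraries 1 and 3. Cd82, Cd81 and Tspan15 were each highest in libraries 1 and 5, and Tspan13 in libraries 4 and 5.

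Luminal marker genes varied among the same libraries. Kit and Elf5, genes of luminal progenitors, read 288.4, 147.9, 128.9, 137.5 and 207.9 CPM and 126.7, 89.6, 66.7, 55.7 and 121.5 CPM in libraries 1 to 5, both highest in libraries 1 and 5 as Cd82, Cd81 and Tspan15 were. Epcam (2161 and 2174 CPM), Cd24a (2708 and 2035), Itgb1 (471.2 and 479.5) and Igsf8 (291.4 and 231.0) were highest in libraries 1 and 5 too. Other luminal markers were not, as Krt8 and Krt18 were highest in libraries 4 and 5, Krt19 and Cldn4 in libraries 2 and 4, and Cldn3 in libraries 2 and 5. Of the genes of hormone-sensing cells, Prlr read 1166, 913.8, 959.1, 1326 and 1587 CPM, highest in libraries 4 and 5 as Tspan13 was, Esr1 stayed between 85.7 and 112.2 CPM, and Foxa1 read 343.5, 262.0, 358.2, 198.2 and 339.6 CPM, lowest in library 4. With 5 libraries no correlation was computed, and the part of the luminal cell mixture in the spread of these members was not tested.

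**Figure D5:**
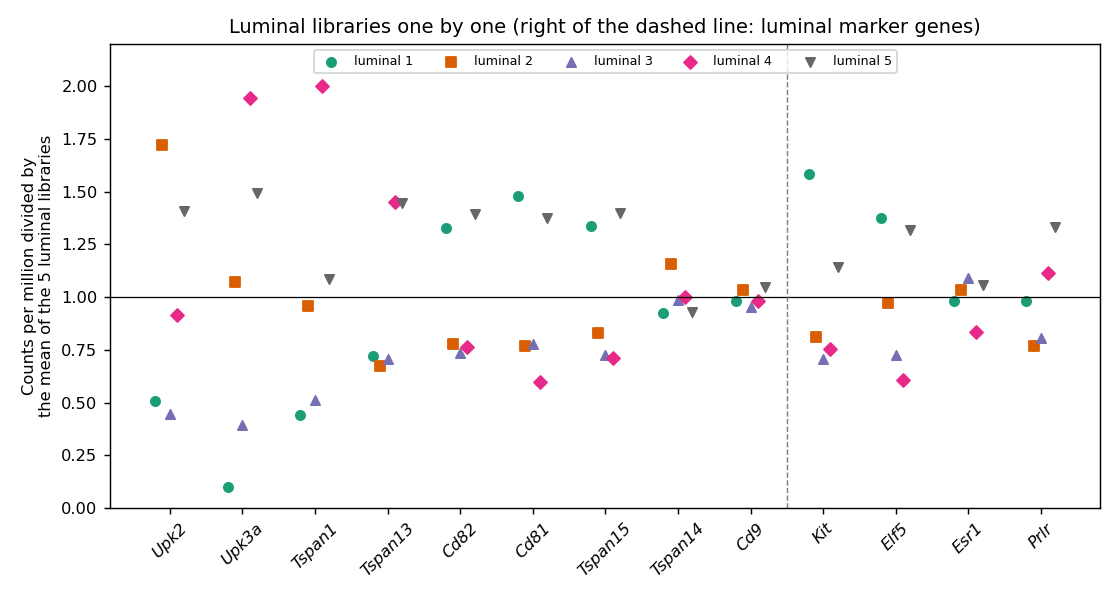
CPM of 9 members and 4 luminal marker genes in each luminal library, divided by the mean of the 5 luminal libraries, so that 1 is the luminal mean. Cd82, Cd81, Tspan15, Kit and Elf5 are highest in libraries 1 and 5, whereas Upk2, Upk3a and Tspan1 are lowest in libraries 1 and 3.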

How the data were processed

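Poly(A)-selected RNA of 5 luminal and 5 basal libraries was sequenced. The authors deposited raw counts per gene as whole numbers, with no normalization. Per the study's methods, adapters were removed with cutadapt and single-end reads were aligned to mm10 with bowtie2 at default settings. The processing notes give cutadapt 4.2 and Bowtie2 2.3.5.1. The counting tool, its annotation and its use of strand and of reads with several matches are not given in the sources used here, and Bowtie2 does not align across splice junctions. The methods describe fewer replicates per condition than the 5 here, so that these steps apply was assumed. The p-values measure the spread between libraries of separate animals, as far as the library names show.

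Of 24594 Entrez identifiers, 24570 matched a symbol of the RefSeq table of GRCm38.p6, which also gave coordinates. Genes passing filterByExpr (minimum count 10, minimum total 15; 14609 kept) were compared with edgeR 4.0.16 (TMM scaling, quasi-likelihood test, cell type as the only term, R 4.3.3), two-sided, with Benjamini-Hochberg adjustment over all genes tested. SE is the log2 fold change over the square root of F. CPM uses the TMM-scaled total. Exon-union lengths came from GENCODE M21, known for 86.9% of genes and 96.7% of counts. A floor of 3 counts per library covers counting error only. No pair of libraries agreed within sampling noise. Luminal and basal libraries of 1 number have names that begin alike, which was read as the animal, and the correlations of their deviations from the group means ran from -0.105 to 0.169.

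All members of the naming rule are named. The members, roles and lists (tetraspanin-fold genes outside the rule, partners, exosome sorting, urothelial programme, cell type markers) were chosen with earlier results of these data known. Alternatives were DESeq2 1.42.0 size factors, upper-quartile factors, library totals alone, DESeq2 and limma voom (limma 3.58.1) as tests, no filter, a filter of 10 counts in all libraries, the replicate block, thinning to 13203146 counts, leaving out each library, and for levels per length the longest transcript or no rescaling.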

Additional observations from a re-analysis of the deposited data

Results flagged for a closer look

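In 6 of 55 groups of 5 libraries, 1 library stood apart from the other 4 by the 5% limit of Dixon's test. For normally distributed values chance gives about 1 in 20 groups, or 2.75 here. Several flagged groups hold counts at or near 0, where that limit does not hold, so 6 cannot be read as an excess. Basal library 1 read 0.437 CPM for Upk3a against 0 to 0.0774 CPM in the other basal libraries, and 9.79 CPM for Tspan13 against 4.08 to 5.73 CPM. Basal library 4 read 12.1 CPM for Tspan6 against 5.34 to 7.11 CPM, and 0.688 CPM for Tspan33 against 0 to 0.155 CPM. Luminal library 1 read 2.81 CPM for Upk3bl, from 45 counts, against 0 to 0.382 CPM. Luminal library 4 read 1.07 CPM for Tspan32, from 14 counts, against 0 in the other 4 luminal libraries.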

How the results depend on the processing

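The 12 luminal and 6 basal calls among the members (all genes 4904 and 4558 of 14609) moved little over 19 other settings. With the replicate block, which pairs libraries of 1 animal, they were 12 and 6 (all genes 4740 and 4539) and no member's call changed. Leaving out 1 library gave 12 to 13 and 6 (all genes 4625 to 5012 and 4251 to 4612). At least 10 counts in every library gave 8 and 5, with 18 members tested (all genes 4178 and 3706 of 12127). Library totals alone gave 14 and 5 (all genes 5705 and 3705 of 14609) and upper-quartile factors 14 and 6 (all genes 5439 and 4051). DESeq2 and limma voom each gave 13 and 6 (all genes 4846 and 4792 with DESeq2, 4861 and 4694 with limma voom). No filter gave 14 and 6 (all genes 4966 and 5089 of 20612), where the added calls were Cd37 and Cd53 (adjusted p 0.0113 and 0.00158). No member reversed in direction. The fitted log2 fold change of Upk2 moved by over 1.5-fold, from 11.69 to 11.05 with DESeq2 and 9.46 with limma voom. As Upk2 had no basal count, these fitted values are not measured folds. By over 1.5-fold also moved Upk3a and Tspan33 without a basal library (7.74 and 6.74) and Tspan33 with limma voom (6.11). Of the lists, Grhl3 (4.95 with limma voom, 4.27 with the block) and Mal (6.70 with limma voom) did so too. Cd9 and Cd81 passed with upper-quartile factors (log2 fold change 0.40 and 0.59) and with library totals (0.46 and 0.66), settings that move the median of all genes by 0.12 and 0.19, as did Adam17 (0.38 and 0.45), so a difference of that size depends on the scaling. Only near-zero list genes reversed: Rom1 to 0.11 and 0.17 with these scalings, 0.038 (limma voom), 0.049 (block) and 0.018 (thinned), Pdcd6ip to 0.10 and 0.18 with these scalings, and Vps4b to 0.021 with library totals. Leaving out 1 library gave -0.13 to 0.24 for Rom1, -0.12 to 0.075 for Pdcd6ip and -0.11 to 0.22 for Lrp5. Cd44 and Ptgfrn lost their calls with library totals (-0.52 and -0.48), Cd44 also with upper-quartile factors (-0.56), and without luminal library 2 (-0.55 and -0.61). Cd44 further lost it without luminal 3 or basal 4 (-0.57 and -0.59) and Ptgfrn without basal 2 (-0.61). Hgs lost its call with no filter (0.32). Taking the longest transcript as length left Cd9 first in both layers (36.5% and 47.0%) and moved other ranks, as of basal Tspan18 from 14 to 10 (level 24.5 to 41.3) and basal Cd81 from 5 to 3. The cause of these changes was not tested. Why 9 members had too few reads for the main test was not tested either.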
